A study of Mus musculus with 6 samples.

Results

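Insulin and insulin-like growth factors signal through a chain of proteins that leads to the kinase mTOR, and 10 genes of that chain are described here: the receptor genes Igf1r and Insr, the receptor substrate genes Irs1 and Irs2, the kinase genes Akt2 and Mtor, the mTOR regulator genes Tsc1 and Mapkap1, and the MAP kinase-interacting kinase genes Mknk1 and Mknk2. They were measured by every probe set that carried 1 of these symbols alone, 26 probe sets of the 45101 on the array, for 10 of 18194 named genes. The RNA came from 6 mouse samples. MIN6 cells, a mouse insulinoma line that secretes insulin, had been infected with an adenovirus carrying miR-7a (AdmiR7a, 2 arrays), miR-7b (AdmiR7b, 1 array) or green fluorescent protein (AdGFP, 1 array), each for 48 h, at 250 as the multiplicity of infection, in DMEM that held Glutamax, 2-mercaptoethanol, glucose at 4.5 g/l and 2% serum. Pancreatic islets on the C57BL/6 background came from mice in which miR-7a2 had been deleted in beta cells with the Lox/Cre system (KO, 1 array) or from mice with the wild-type gene (WT, 1 array); the promoter of the Cre, the age of the mice and the number of animals behind each array are not given in the sources used here.

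When insulin or IGF1 binds, the receptor phosphorylates IRS proteins, which recruit PI3-kinase and so activate AKT. AKT in turn releases mTOR complex 1 from inhibition by the TSC proteins, and mTOR and the MNK kinases then act on the machinery that starts translation at the mRNA cap. In beta cells this chain is known for its part in cell mass, survival and insulin production. Earlier work on miR-7 named IGF1R, IRS1 and IRS2 as targets in tumour cells and Mknk1, Mknk2 and Mapkap1 among its targets in beta cells. The choice of these members, and the direction of those that fell, are therefore not independent of what was known. Mapkap1 did not fall on its probe set with the highest mean, as given below.

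The mature sequences are shown because both vectors were read as 1 treatment in the main test. Written 5′ to 3′ from RefSeq (GRCm38.p6), with bases 2 to 8, the seed that pairs with a target, in capitals, they read as follows.
miR-7a-5p: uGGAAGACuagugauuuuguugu
miR-7b-5p: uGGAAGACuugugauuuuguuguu
The first lies at chr7:78888295-78888317 on the plus strand within Mir7-2, and the second at chr17:56243017-56243040 on the plus strand. The seeds are identical. Over the 23 positions that both have, counted from the 5′ end, 22 are the same and the 1 substitution is A10U (miR-7a base first), and miR-7b-5p has 1 further base at its 3′ end. The label of the deletion, miR-7a2, was matched by name alone to the RefSeq gene Mir7-2, whose hairpin is printed as the locus taken to be deleted, with the miR-7a-5p arm in capitals (chr7:78888277-78888373, plus strand).
Mir7-2 hairpin: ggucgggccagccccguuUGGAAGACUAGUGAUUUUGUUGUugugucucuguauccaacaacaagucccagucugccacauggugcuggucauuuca
RefSeq lists the same miR-7a-5p at 2 loci. Mature miR-7 was not measured on these arrays, and the level reached in MIN6 cells or left in KO islets is not analysed here.

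All values are log2 probe set intensities, in which a difference of 1 is a doubling. A gene took the probe set with the highest mean on the MIN6 or the islet arrays, and a mean of at least 4 was required for a test. All 10 members met this in both systems. Of the 26 probe sets, 18 met it on the MIN6 arrays and 18 on the islet arrays, and 4 lay at the lowest value of the table on all 6 arrays (both further Insr and both further Mtor probe sets, within 0.05). The AdGFP array stood apart: its differences from the miR-7 arrays had an SD across genes between 0.509 and 0.575, against 0.194 to 0.215 among the miR-7 arrays, and it is the only control for every MIN6 value below. Of 6 measured beta-cell markers, 5 were above 4 on AdGFP, and Slc2a2, the glucose transporter GLUT2, was below 4 on all 4 MIN6 arrays but between 14.1 and 14.5 in islets; all 6 markers were above 4 in both islet samples. Several of these markers moved with the miR-7 arrays: Pdx1, a transcription factor gene of beta cells, was at 12.13 to 12.30 on the miR-7 arrays and 13.19 on AdGFP (-0.99 ± 0.10, adjusted p = 0.0137 by limma). Ucn3, a hormone gene of mature beta cells, was at 10.38 to 10.47 on the miR-7 arrays and 11.58 on AdGFP (-1.15 ± 0.08, adjusted p = 0.0115), and the transcription factor gene Nkx6-1 at 10.16 to 10.34 on the miR-7 arrays and 11.005 on AdGFP (-0.76 ± 0.10, adjusted p = 0.0191). Slc2a2 was at 2.52 on all 3 miR-7 arrays and 3.84 on AdGFP, whereas Ins2 (0.06) and Iapp (-0.01) did not pass. These differences are of the size of the members' below, and their part in them was not tested. The summed signal of the 6 was 16.98 to 17.12 on the miR-7 arrays and 17.12 on AdGFP. For the actin controls, the signal at the 3′ end minus that at the 5′ end, a sign of RNA integrity, was 1.43 to 1.48 on the miR-7 arrays and 1.48 on AdGFP, and 2.65 in KO and 2.77 in WT islets. For the Gapdh controls it was -0.0008 to 0.048 on the miR-7 arrays and -0.0016 on AdGFP. In islets the Gapdh value was 0.83 in KO and 0.68 in WT, the opposite order to actin.

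The MIN6 arrays address how these transcripts respond when miR-7 is raised in a beta-cell line. With the 3 miR-7 arrays pooled against AdGFP, 7 of the 10 members fell (Igf1r, Mknk1, Mknk2, Mtor, Irs2, Akt2 and Irs1) by between 0.67 and 1.34, 2 rose (Mapkap1 and Tsc1) and Insr did not pass. "Rose" and "fell" mean that limma gave a Benjamini-Hochberg adjusted p under 0.05, with the adjustment made over the 10369 genes tested, of which 11.9% fell and 14.3% rose. In all 7 members lay below AdGFP on every miR-7 array, as 32.9% of genes did, and 2 lay above it, as 46.5% did. The median difference of the members was -0.71, against 0.06 for all genes tested. The members were chosen with earlier results of these data known, so these comparisons describe them and do not test them as a set. The fit had 2 residual degrees of freedom and takes the spread of the miR-7 arrays for that of the single AdGFP array. Leaving out either AdmiR7a array or the AdmiR7b array left 0 members called in either direction, with adjusted p between 0.0656 and 0.107 for these 9 genes and all 9 at an unadjusted p under 0.05, as were 36.3%, 37.6% and 36.8% of all genes. With no filter on low levels 2 members fell (Irs2 and Mknk2) and 0 rose, the adjusted p of the other 7 genes called then lying between 0.0526 and 0.146.

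**Figure D1:**
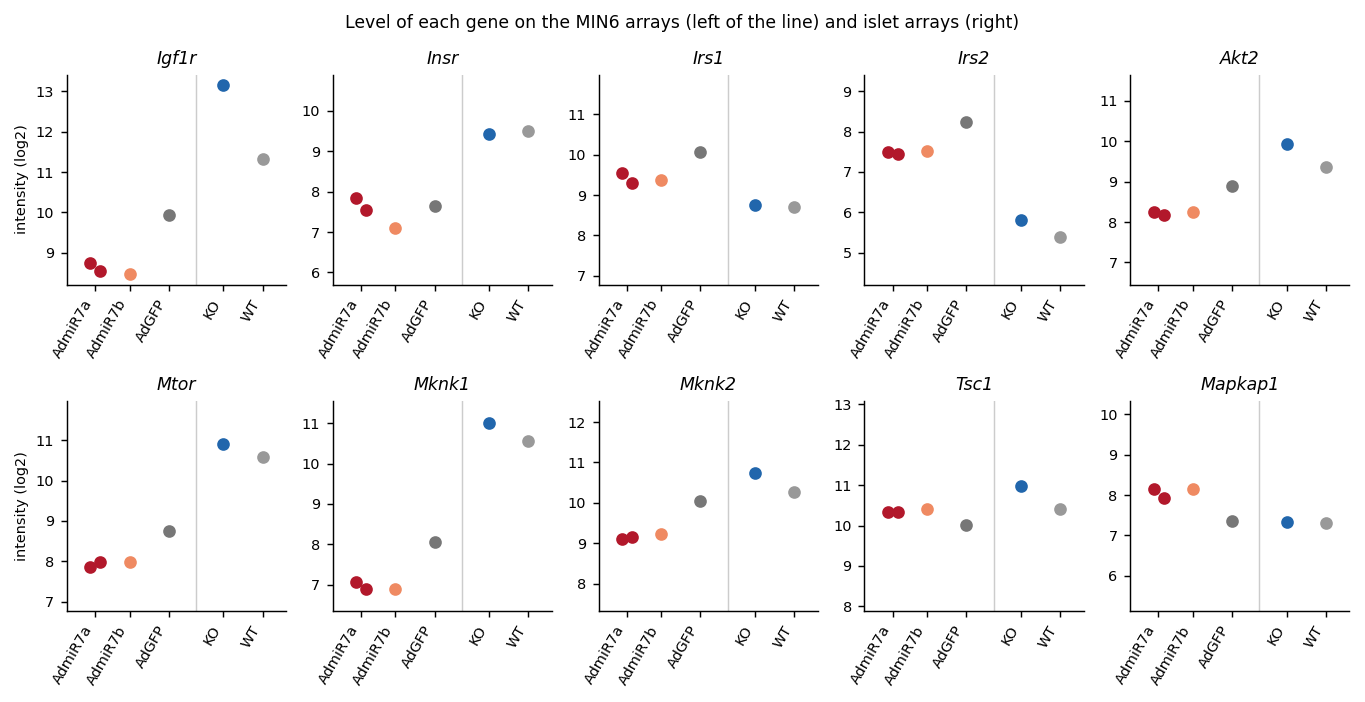
Level of each of the 10 genes on each array (log2 intensity, 1 point an array, the probe set with the highest MIN6 mean), with the MIN6 arrays left of the line and the islet arrays right of it. Each panel spans the same range of log2 units; for 7 genes the 3 miR-7 points lie below AdGFP, for Tsc1 and Mapkap1 above it, and for Insr on both sides.

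Of the receptors, 1 passed the test and 1 did not, and the gap between them was not tested. Igf1r, the receptor for IGF1 and IGF2, stood at 8.75 and 8.56 with AdmiR7a and 8.48 with AdmiR7b, against 9.94 with AdGFP. It was low on all 3 miR-7 arrays, each at least 1.19 below the control. The pooled difference was -1.34 ± 0.13 (SE, adjusted p = 0.0134 by limma), a signal 60.6% lower than on AdGFP. Insr, the insulin receptor itself, was at 7.84 and 7.54 with AdmiR7a and 7.10 with AdmiR7b, against 7.64 with AdGFP. One AdmiR7a array lay above the control and the other below it, and the pooled difference of -0.15 ± 0.31 (adjusted p = 0.751 by limma) does not show that Insr stayed the same.

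Both receptor substrates, the docking proteins that carry the signal from the receptors to PI3-kinase, were lower with miR-7. Irs1 was at 9.54 and 9.30 with AdmiR7a and 9.37 with AdmiR7b, against 10.07 with AdGFP, and fell by 0.67 ± 0.12 (adjusted p = 0.0316 by limma). Irs2, the substrate tied most closely to beta-cell mass in mice, was at 7.49 and 7.45 with AdmiR7a and 7.50 with AdmiR7b, against 8.24 with AdGFP. Its 3 miR-7 values lay within 0.0516 of each other, the tightest of the 10 genes, and it fell by 0.75 ± 0.07 (adjusted p = 0.0132 by limma).

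Akt2, the AKT form prominent in insulin-responsive tissues, was at 8.25 and 8.17 with AdmiR7a and 8.25 with AdmiR7b, against 8.89 with AdGFP, and fell by 0.67 ± 0.08 (adjusted p = 0.0168 by limma). The suffix of its probe set marks probes that can also match transcripts of other genes. A second Akt2 probe set, which recognises several transcripts of the gene, moved by a like amount without passing the test (-0.62 ± 0.14, adjusted p = 0.0567 over all probe sets).

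Mtor, the kinase of both mTOR complexes, was at 7.85 and 7.98 with AdmiR7a and 7.99 with AdmiR7b, against 8.75 with AdGFP. It fell by 0.81 ± 0.09 (adjusted p = 0.0161 by limma). Tsc1, whose product with TSC2 holds mTOR complex 1 in check, was at 10.33 and 10.35 with AdmiR7a and 10.40 with AdmiR7b, against 10.001 with AdGFP, and rose by 0.36 ± 0.07 (adjusted p = 0.0399 by limma). The same probe set missed the threshold when all 18010 probe sets were tested in place of genes (adjusted p = 0.0509).

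Mapkap1 encodes SIN1, a subunit of mTOR complex 2, which phosphorylates AKT. Its probe set with the highest mean was at 8.16 and 7.94 with AdmiR7a and 8.15 with AdmiR7b, against 7.37 with AdGFP, and rose by 0.71 ± 0.12 (adjusted p = 0.0284 by limma). The other probe set was at 5.71 and 5.77 with AdmiR7a and 5.005 with AdmiR7b, against 5.90 with AdGFP, so that it lay below the control on all 3 arrays (-0.41 ± 0.37, adjusted p = 0.472). The direction given for Mapkap1 is therefore that of 1 of its 2 probe sets, and the mean of both did not pass (0.15, adjusted p = 0.511).

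The MNK kinases, which phosphorylate the cap-binding protein eIF4E, were both lower. Mknk1 was at 7.05 and 6.89 with AdmiR7a and 6.89 with AdmiR7b, against 8.06 with AdGFP, and fell by 1.12 ± 0.10 (adjusted p = 0.0132 by limma). Mknk2 was at 9.11 and 9.15 with AdmiR7a and 9.23 with AdmiR7b, against 10.05 with AdGFP, and fell by 0.89 ± 0.08 (adjusted p = 0.0132 by limma). A further Mknk1 probe set near the filter went the other way: it was at 4.99 and 5.002 with AdmiR7a and 5.14 with AdmiR7b, against 4.36 with AdGFP, and rose by 0.69 ± 0.10 (adjusted p = 0.0305 over all probe sets). With the mean of all 3 probe sets Mknk1 no longer passed (-0.22, adjusted p = 0.297).

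Over all probe sets, 9 of the 18 tested for these genes fell, 2 rose and 7 did not pass, against a background of 9.41% that fell and 9.28% that rose. Igf1r had 4 tested probe sets. Besides the one above, one at 8.14 and 8.01 with AdmiR7a, 7.84 with AdmiR7b and 9.37 with AdGFP fell by 1.38 ± 0.14, and one at 7.79 and 7.91 with AdmiR7a, 7.69 with AdmiR7b and 8.54 with AdGFP fell by 0.74 ± 0.12 (adjusted p = 0.0234 and 0.0341 by limma). The fourth was at 4.47 and 4.60 with AdmiR7a and 5.16 with AdmiR7b, against 5.10 with AdGFP, and did not pass (-0.36 ± 0.32, adjusted p = 0.467). The further probe sets of Tsc1 did not pass, at 0.45 ± 0.16 and -0.17 ± 0.36 (adjusted p = 0.128 and 0.763), both at levels between 4.26 and 5.41.

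**Figure D2:**
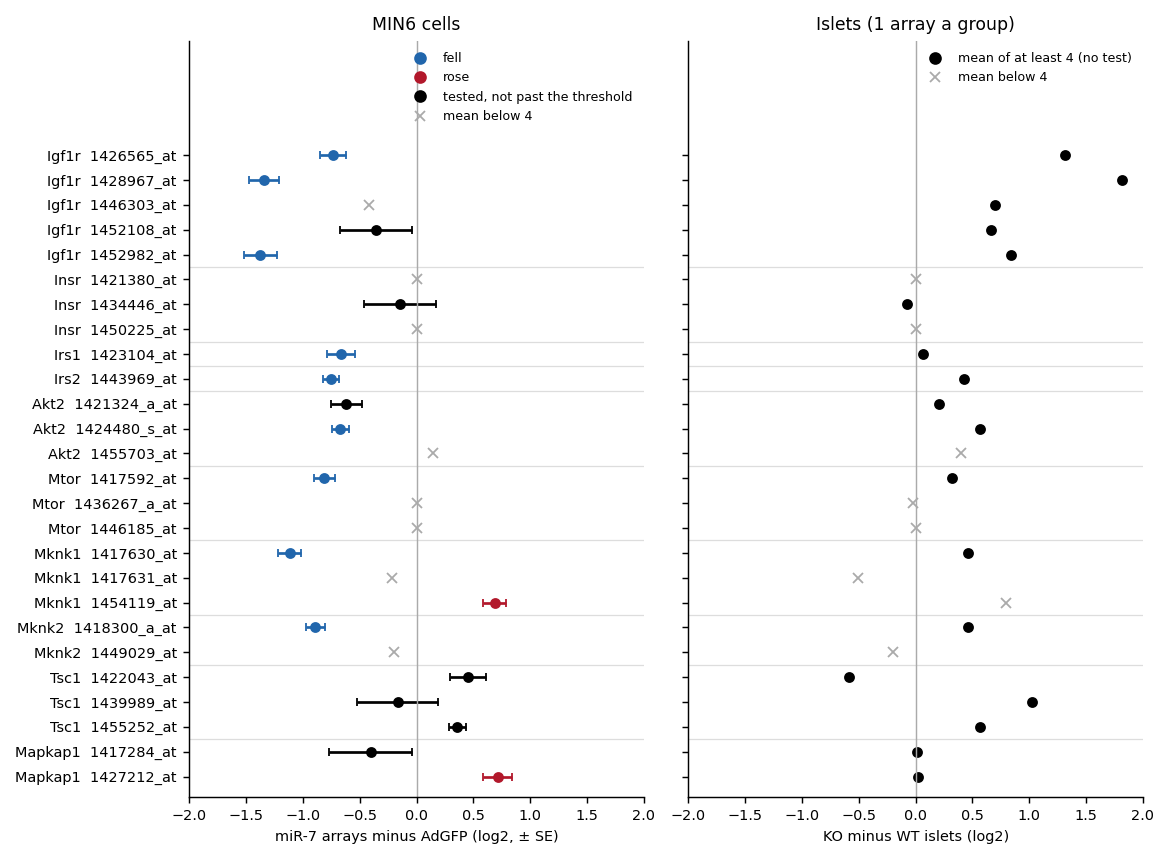
Log2 difference of each of the 26 probe sets, miR-7 arrays minus AdGFP in MIN6 cells (left, mean ± SE from limma) and KO minus WT in islets (right, 1 array a group, no error). In the left panel blue fell, red rose and black did not pass. Black points in the right panel had a mean of at least 4 and were not tested. Grey crosses mark means below 4 in either panel. Among the probe sets tested in MIN6 cells, those of Mknk1, Mapkap1 and Tsc1 point in more than 1 direction there. The 5 of Igf1r all lie above 0 in islets.

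The second vector, AdmiR7b, tests the other miR-7 sequence. Relative to AdGFP, 7 members were at least 0.58 (log2, 1.49-fold) lower with AdmiR7b and 1, Mapkap1 (0.78), was at least that much higher, against 11.2% and 12.1% of genes. These values have 1 array a group and no test, and they share the AdGFP array with the AdmiR7a values. Igf1r was at -1.46 with AdmiR7b and at -1.19 and -1.38 with AdmiR7a, and Mknk1 at -1.17 with AdmiR7b and at -1.01 and -1.17 with AdmiR7a. Between the vectors themselves, limma called 0 members for AdmiR7b minus AdmiR7a and 0 at an unadjusted p under 0.05, against 0% and 5.86% of all genes, with 1 residual degree of freedom. The widest gap was that of Insr, -0.59 ± 0.18 (adjusted p = 0.737), and the other 9 members differed by between -0.17 and 0.10.

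The islet arrays address how the same transcripts stand where miR-7a2 has been deleted in beta cells. Each group has 1 array, so nothing was tested. In islets 9 of the 10 members were higher in KO than in WT, against 44.7% of the 10568 genes measured, with a median of 0.45 for the members and -0.03 for all genes. Only Igf1r was at least 0.58 apart (4.11% of genes were that much higher in KO), and Akt2 and Tsc1 lay just under that size. By probe set, 16 of the 18 past the filter were higher in KO and 2 were lower, against 47.4% higher of all probe sets.

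Igf1r was at 12.92 in KO and 12.09 in WT, a difference of 0.83. Its other 4 probe sets were also higher in KO, by 1.82 (13.15 in KO and 11.33 in WT), by 1.32 (10.07 in KO and 8.76 in WT), by 0.70 (6.40 in KO and 5.70 in WT) and by 0.67 (4.88 in KO and 4.21 in WT). The size thus varied from 0.67 to 1.82 between probe sets of 1 gene, and the probe set read in MIN6 cells gave 1.82. Insr was at 9.42 in KO and 9.50 in WT.

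Among the signalling members, Akt2 was at 9.94 in KO and 9.37 in WT, Mknk1 at 11.02 in KO and 10.55 in WT, and Mknk2 at 10.74 in KO and 10.28 in WT. Mtor was at 10.89 in KO and 10.58 in WT, and Irs2 at 5.81 in KO and 5.38 in WT. The differences of these 5 lay between 0.32 and 0.57. Irs1 and Mapkap1 were nearly level, Irs1 at 8.76 in KO and 8.70 in WT and Mapkap1 at 7.33 in KO and 7.31 in WT. With each array centred on its median Mapkap1 turned to -0.02, which left 8 members higher in KO.

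Tsc1 was at 10.97 in KO and 10.41 in WT (0.56), the same direction as with miR-7 raised in MIN6 cells. Its other probe sets stood at 7.22 in KO and 6.19 in WT (1.02) and at 3.95 in KO and 4.53 in WT (-0.59), so they opposed each other. In all, 7 of the 10 members were below AdGFP on all 3 miR-7 arrays and higher in KO than in WT islets, namely Igf1r, Irs1, Irs2, Akt2, Mtor, Mknk1 and Mknk2, where 19.2% of the 9781 genes measured in both systems had that pattern. The MIN6 and islet comparisons share no array, but the members were chosen with earlier results of these data known. The gap to 19.2% is therefore a description of these genes and not a test of them.

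In whole islets fewer cells of a type and less RNA per cell cannot be told apart. The summed signal of the beta-cell markers was 17.3 in KO and 17.3 in WT (log2), that of 4 endothelial markers 9.92 in KO and 9.99 in WT, of 4 immune markers 10.2 in KO and 10.1 in WT, of 3 alpha-cell markers 16.9 in KO and 17.0 in WT, and of 3 delta and PP cell markers 16.3 in KO and 16.2 in WT. The sum of 4 stellate and fibroblast markers was 9.47 in KO and 9.80 in WT, with Col1a1 at the lowest value of the table in both. None of 4 acinar markers passed 4 (0 in KO and 0 in WT), and 3 ductal markers summed to 13.6 in KO and 13.7 in WT. The sums are led by their brightest genes, and single markers differed by more. Of the beta-cell markers, Nkx6-1 was at 11.56 in KO and 10.83 in WT (0.73), Ucn3 at 12.17 in KO and 12.60 in WT (-0.43), Slc2a2 at 14.49 in KO and 14.15 in WT (0.34) and Pdx1 at 12.09 in KO and 11.81 in WT (0.28), while Ins2 and Iapp differed by -0.01 each. The endothelial marker Pecam1 was at 5.19 in KO and 6.30 in WT (-1.11), the ductal marker Krt19 at 4.45 in KO and 2.68 in WT (1.77), and the immune marker Cd68 at 8.35 in KO and 7.85 in WT (0.50). The differences of Nkx6-1, Pecam1, Krt19 and Cd68 are larger than those of most members. Krt19 was below 4 in WT, at the same 2.68 as on the MIN6 arrays, so the background limits the size of its difference. The part of any of these markers in the islet differences was not tested.

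**Figure D3:**
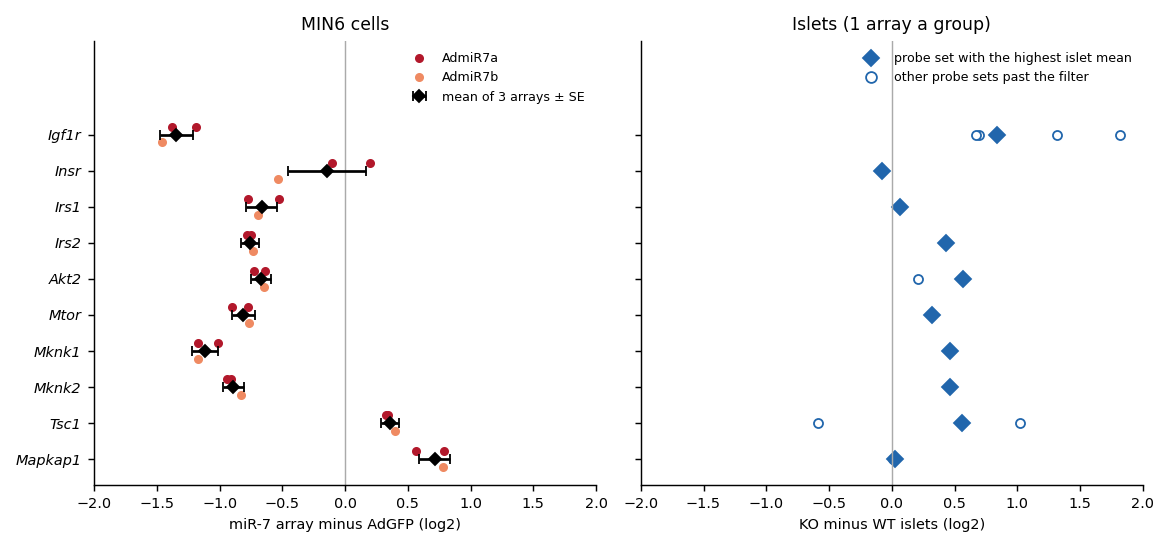
Log2 differences of the 10 genes: in MIN6 cells each miR-7 array minus AdGFP (dots) with the pooled mean ± SE (diamond), and in islets KO minus WT for every probe set with a mean of at least 4, without error since each group has 1 array. The 7 genes that fell in MIN6 cells lie right of 0 in islets, Irs1 by only 0.06; Tsc1 lies right of 0 in both except for 1 of its islet probe sets.

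The rest of the pathway was read from a list of 65 other genes arranged by role, of which 56 had a named probe set and 45 were tested in MIN6 cells. Of these 3 fell and 6 rose, beside the background of 11.9% and 14.3%, with a median of 0.10. Eif4ebp2, a repressor of cap-dependent translation that mTOR inactivates, was at 8.17 and 8.07 with AdmiR7a and 8.02 with AdmiR7b, against 9.04 with AdGFP, and fell by 0.96 ± 0.09 (adjusted p = 0.0132 by limma). Pik3cb, a catalytic subunit of PI3-kinase, was at 4.17 and 4.61 with AdmiR7a and 4.76 with AdmiR7b, against 5.64 with AdGFP, and fell by 1.13 ± 0.26 (adjusted p = 0.0477), at levels near the filter. Ddit4, a stress-induced inhibitor of mTOR complex 1, was at 9.80 and 9.79 with AdmiR7a and 9.78 with AdmiR7b, against 10.24 with AdGFP, and fell by 0.46 ± 0.07 (adjusted p = 0.0232).

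The genes that rose sat at several steps. Map2k1, the kinase MEK1 upstream of ERK, rose by 0.74 ± 0.09, and the AKT phosphatase gene Phlpp2 rose by 0.67 ± 0.12. The translation repressor gene Pdcd4 rose by 0.58 ± 0.07, the mTOR inhibitor gene Deptor by 0.50 ± 0.11, the adaptor gene Grb2 by 0.49 ± 0.10 and the stress kinase gene Mapk14 (p38 alpha) by 0.34 ± 0.07. Adjusted p for these 6 ran from 0.0179 to 0.0423 in limma, and Mapk14 lost its call on renormalized arrays (adjusted p = 0.0527). With probe sets averaged, Grb2, Deptor and Mapk14 did not pass (adjusted p = 0.0651, 0.0797 and 0.370), and Eif4ebp2 was not among the genes tested. With no filter 7 of these 9 genes lost the call, Eif4ebp2 (adjusted p = 0.0552) and Pik3cb (adjusted p = 0.225) among them, and Ddit4 and Pdcd4 kept it (adjusted p = 0.0107 and 0.0356). One further gene of the list, the PI3-kinase regulatory gene Pik3r2, then passed at a difference of only -0.06 (adjusted p = 0.00983). As with the members, 0 of these 9 genes kept the call when 1 miR-7 array was left out.

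Of the partners of the members, the other AKT gene measured, Akt1, stood at 0.28 ± 0.08 (adjusted p = 0.080), Tsc2 at -0.14 ± 0.08 (adjusted p = 0.258), and the mTOR complex subunits Rptor at -0.23 ± 0.13 and Rictor at 0.34 ± 0.14 (adjusted p = 0.240 and 0.149). Eif4e, the protein that the MNKs phosphorylate, was at -0.05 ± 0.07 (adjusted p = 0.619). By limma 0 of 7 AKT substrate genes and 0 of 3 ligand and binding protein genes passed, with 2 and 2 at an unadjusted p under 0.05, where 43.3% of all genes were. The gap between Akt2 and Akt1 was not tested.

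**Figure D4:**
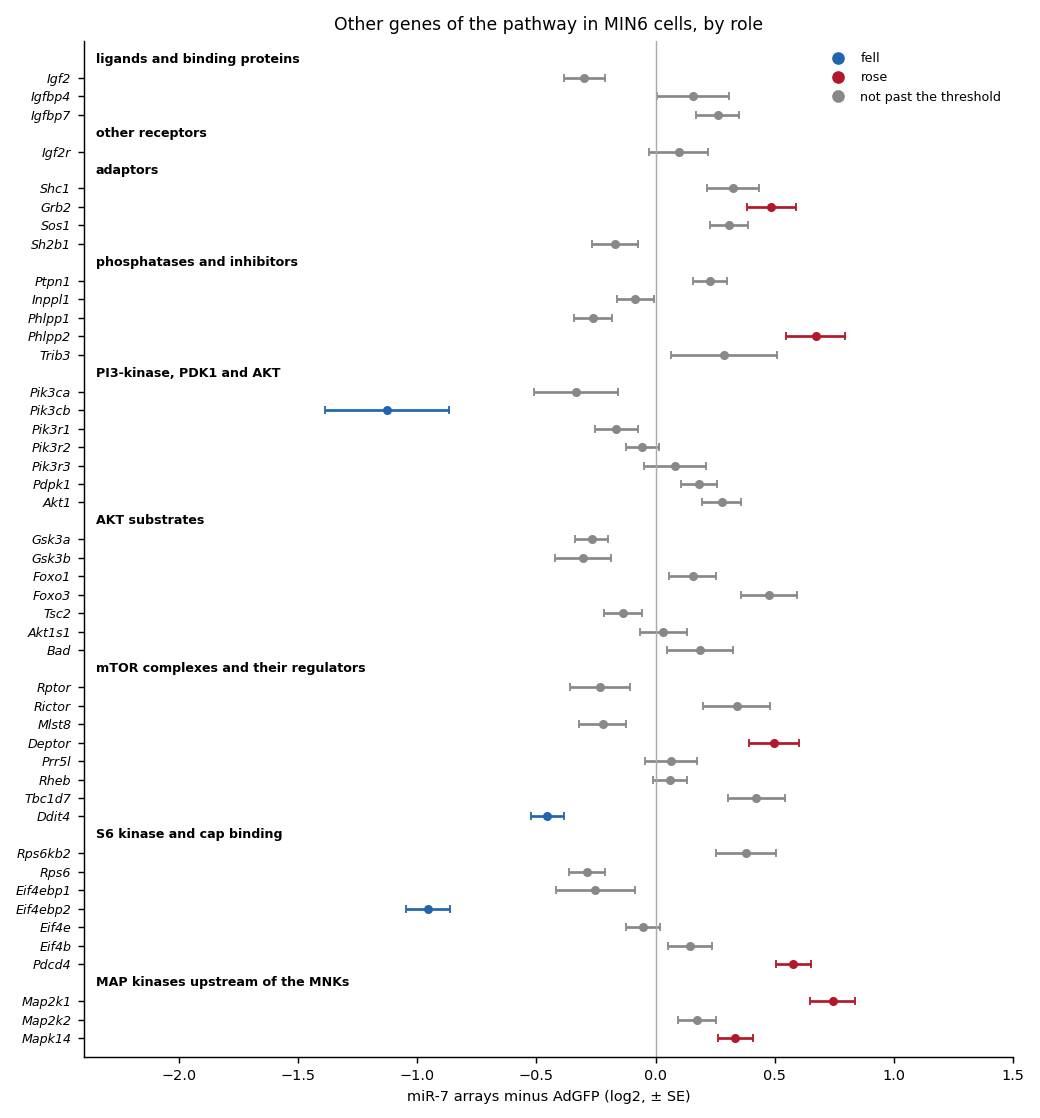
Log2 difference (miR-7 arrays minus AdGFP, mean ± SE from limma, 3 arrays against 1) of the 45 tested genes of the pathway list, grouped by role. Blue points fell and red points rose; Pik3cb and Eif4ebp2 lie farthest below 0, and most genes lie within 0.5 of it.

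In islets 50 genes of that list were measured, of which 19 were higher in KO, where 44.7% of all genes measured were. The median was -0.07, beside -0.03 for all genes. The 3 highest in KO were Pik3cb (5.77 in KO and 4.66 in WT, a difference of 1.10), Pik3r1, a regulatory PI3-kinase subunit (10.22 in KO and 9.68 in WT, 0.54), and the adaptor gene Sh2b1 (8.43 in KO and 7.90 in WT, 0.53). The 3 lowest were Prr5l, whose product binds mTOR complex 2 (3.401 in KO and 6.01 in WT, -2.61), and the IGF-binding protein genes Igfbp4 (3.50 in KO and 4.85 in WT, -1.35) and Igfbp7 (11.51 in KO and 12.14 in WT, -0.62). Both Prr5l and Igfbp4 were below 4 in KO, so the background limits their size.

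The genes whose pattern lay nearest to Igf1r were found by Euclidean distance over 4 differences, each miR-7 array minus AdGFP and KO minus WT, among 9781 genes. Nupr1, a stress-induced nuclear protein gene, was nearest at a distance of 0.21, with -1.26 and -1.25 with AdmiR7a, -1.32 with AdmiR7b and 0.88 in islets. Next came the organic anion transporter gene Slco4a1 (0.30), Morn4 (0.31), the phosphate transporter gene Slc20a2 (0.33) and Nhp2 (0.33), a gene of small nucleolar RNA complexes. Of the 4 differences, 3 share the AdGFP array, so the likeness is a description. The islet difference of Igf1r entered at 0.83, from the probe set with the highest islet mean. With every gene read in islets on its MIN6 probe set, which puts Igf1r at 1.82, 0 of these 5 genes were among the nearest 5: Nupr1 lay at a distance of 0.96, and the nearest were Ttyh1 (0.29), Rprml (0.34), Phactr1 (0.38), Slc6a9 (0.52) and Slc7a3 (0.59).

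Levels of the members differed between the line and the tissue on the same probe set. Both islet arrays lay above all 4 MIN6 arrays for 7 members and below them for 3, where 36.5% and 39.7% of 10635 genes did so. Tsc1 and Mapkap1 were near ties. Tsc1 was at 10.41 in WT islets, against a highest MIN6 value of 10.40. Mapkap1 was at 7.33 in KO islets, against a lowest MIN6 value of 7.37. Its other probe set lay the opposite way, at 7.12 in KO and 7.11 in WT islets, against 5.005 to 5.90 on the MIN6 arrays. Igf1r was at 13.15 in KO and 11.33 in WT islets, against 8.48 to 9.94 on the MIN6 arrays, and Mknk1 at 11.02 in KO and 10.55 in WT islets, against 6.89 to 8.06. The substrates ran the other way: Irs2 was at 5.81 in KO and 5.38 in WT islets, against 7.45 to 8.24 on the MIN6 arrays, and Irs1 at 8.76 in KO and 8.70 in WT islets, against 9.30 to 10.07. Among the ligands, Igf2 was at 4.46 in KO and 4.85 in WT islets, against 13.0 with both AdmiR7a arrays, 13.1 with AdmiR7b and 13.4 with AdGFP, and Igf1 was at 2.43 to 2.44 on all 6 arrays. The binding protein genes Igfbp3 (10.98 in KO and 11.34 in WT) and Igfbp5 (10.56 in KO and 10.53 in WT) were high in islets and at 2.17 to 2.19 on the MIN6 arrays. The line and the tissue also differ in cell makeup and in the actin measure given above, and the part of either in these levels was not tested.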

How the data were processed

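The deposited table holds log2 probe set intensities. Per the submitters' processing notes the authors used GCRMA and the affy package, without versions; GCRMA corrects background from probe sequence and quantile-normalizes arrays. Array annotation named 34958 probe sets with 1 symbol, 932 with several and 9211 with none; 34754 of the first had an identifier in RefSeq (GRCm38.p6), used for current symbols. Genes with a mean below 4 were left out, which left 10369 in MIN6 and 10568 in islets. Tests used limma 3.58.1 (R 4.3.3) with lmFit and eBayes on the log2 values, two-sided, and were tested on simulated data. The miR-7a infection was done in duplicate, per the series' design text, which does not say whether the cultures were separate, so p-values measure the spread between these arrays. The number of arrays limits the precision. The 10 members, the pathway and marker lists and the named genes (pathway genes past the test, the 3 highest and 3 lowest in KO, the 5 nearest Igf1r) were chosen with earlier results of these data known. Symbols followed the array's table, and 9 pathway genes without a single-symbol probe set were not analysed here. Alternatives were the filter, averaged probe sets, normalization, centring, a variance trend and leaving out arrays.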

Additional observations from a re-analysis of the deposited data

How the results depend on the processing

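All 10 members kept their direction in the pooled comparison under a filter at 6, renewed quantile normalization, centring on array medians and a variance trend, with 7 that fell and 2 that rose each time. With no filter on 18194 genes, 2 members fell and 0 rose, 1 pathway gene rose, and 981 genes were called (554 fell and 427 rose) in place of 2715. With all probe sets averaged, 9 members were tested, without Insr, of which 6 fell and 0 rose. Of the 9775 genes tested in that setting, 1194 fell and 1376 rose. Averaging left 3 members at least 0.58 lower with AdmiR7b in place of 7, and Mapkap1 with AdmiR7b minus AdGFP turned to -0.0575. The further probe sets enter by construction. Leaving out 1 miR-7 array gave 0 genes, 0 members and 0 pathway genes in every case by limma (lowest adjusted p between 0.0656 and 0.0773, with 3764 to 3893 genes and 13 to 18 pathway genes at an unadjusted p under 0.05, and 1 residual degree of freedom), at Igf1r differences from -1.42 to -1.29, and Insr ran from -0.32 to 0.0497. The 280 genes past a log2 size of 1 in islets became 423 with no filter, 134 with a filter at 6 and 183 with averaged probe sets. Averaging also lowered KO minus WT to 0.39 for Akt2, 0.33 for Tsc1, 0.25 for Mknk1, 0.13 for Mknk2 and 0.10 for Mtor. It raised that of Igf1r to 1.07, and 9 members stayed higher in KO. An alternative chosen after seeing the data, the MIN6 probe set in islets, moved Igf1r to 1.82 and replaced all 5 genes nearest to it. Of the tested differences of members and named pathway genes, 21 lost the call and 90 stayed on their side of the threshold outside the omissions of an array. No paired analysis was possible because the groups compared share fewer than 2 replicate numbers. Levels near 4 limit Pik3cb, Prr5l, Igfbp4 and the further probe sets of Tsc1 and Mknk1.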
